A study of Mus musculus with 4 samples.

Results

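The peaks described here are the Zeb1 peaks on chromosome 11 of mouse embryonic stem cells (mESC), which number 1398 of the 17435 regions in the deposited list. They were chosen by their chromosome, and chromosome 11 was itself selected on the list, as the autosome with the most peaks and with the most peaks per Mb. Its count and density are therefore given as a description, with no test. The cells were mES-D3, an established line, kept without feeder cells in ground state medium (GS), which is NDiff N2B27 to which PD0325901 (a MEK inhibitor, 1 μM), CHIR99021 (a GSK-3 inhibitor, 3 μM) and LIF (20 ng/mL) were added. Chromatin was fixed with 1% formaldehyde and sheared to fragments of about 200 bp, and Zeb1 was precipitated with 8 μg of the H-102 antibody. There were 3 Zeb1 ChIP libraries and 1 input library, all from the same line and medium, so every result describes that line. The list gives 1 mean per peak over the libraries, so no SD between libraries can be given, and whether the cells carried the markers of naive mESC was not tested, since the list holds no expression.

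Zeb1 is a transcription factor with zinc fingers at both ends of the protein that bind E-box sequences, and it is best known for repressing epithelial genes in the epithelial-mesenchymal transition, with corepressors such as CtBP. Mouse chromosome 11 is rich in genes. It carries the Hoxb cluster, several Wnt genes, Stat genes and Polycomb genes, and also clusters of keratin, keratin-associated protein, chemokine and olfactory receptor genes whose products belong to differentiated tissues.

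The stretches printed here come from GRCm38.p6, the assembly of the list, on the forward strand. Each surrounds the match to CACCTG nearest to the centre of a peak among those whose stretch, with 60 bases on either side, lies outside annotated UTRs. CACCTG is an E-box core, its reverse complement is CAGGTG, and capitals mark each match on either strand. Wnt3a, Lif, Stat3, Neurod2 and Cbx8 were chosen for their roles, Hoxb3 for the highest enrichment outside LINE-1 elements, and the others for the repeated sequence they lie in, all after the values were seen. The Wnt3a stretch, chr11:59290759-59290884, lay in intergenic sequence, and its match was 71 bp before the start site of transcription (TSS). The Lif stretch, chr11:4267533-4267658, and the Stat3 stretch, chr11:100938820-100938945, lay in intron 1 of their genes. The Neurod2 stretch, chr11:98333967-98334092, was intergenic, 4385 bp upstream of the TSS, and the Cbx8 stretch, chr11:119041402-119041527, was intergenic, 552 bp upstream. The Hoxb3 stretch, chr11:96344312-96344437, lay in the coding part of exon 3 of 4. The printed matches of Hoxb3, Stat3 and Cbx8 were 850, 367 and 360 bp from the centres of their peaks, so these stretches did not lie at the peak centre. In the other printed stretches the match was 2 to 71 bp from the centre. The stretch named for F630206G17Rik, chr11:45725743-45725868, and that named for Mat2b, chr11:40419570-40419695, lay in intergenic copies of the LINE-1 family L1Md_T. The Krtap4-16 stretch, chr11:99851223-99851348, and the Krtap4-7 stretch, chr11:99643710-99643835, lay in the coding sequence of single-exon genes.
Wnt3a: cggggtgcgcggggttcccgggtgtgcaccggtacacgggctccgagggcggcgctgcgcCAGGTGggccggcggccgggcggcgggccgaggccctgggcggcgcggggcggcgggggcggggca
Lif: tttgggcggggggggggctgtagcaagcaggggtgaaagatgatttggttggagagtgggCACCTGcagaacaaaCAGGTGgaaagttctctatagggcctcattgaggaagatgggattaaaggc
Stat3: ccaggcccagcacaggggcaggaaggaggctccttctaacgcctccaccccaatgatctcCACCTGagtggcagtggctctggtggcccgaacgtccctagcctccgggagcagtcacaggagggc
Neurod2: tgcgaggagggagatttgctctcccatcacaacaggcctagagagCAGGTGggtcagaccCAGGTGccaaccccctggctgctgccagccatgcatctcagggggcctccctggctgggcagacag
Cbx8: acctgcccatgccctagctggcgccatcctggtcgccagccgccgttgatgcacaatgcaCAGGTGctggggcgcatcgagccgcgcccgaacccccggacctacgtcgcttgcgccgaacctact
Hoxb3: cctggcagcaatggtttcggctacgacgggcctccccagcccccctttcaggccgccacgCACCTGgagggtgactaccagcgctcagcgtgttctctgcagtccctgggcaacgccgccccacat
F630206G17Rik: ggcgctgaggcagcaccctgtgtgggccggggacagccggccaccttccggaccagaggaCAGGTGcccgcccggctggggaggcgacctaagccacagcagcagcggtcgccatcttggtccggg
Mat2b: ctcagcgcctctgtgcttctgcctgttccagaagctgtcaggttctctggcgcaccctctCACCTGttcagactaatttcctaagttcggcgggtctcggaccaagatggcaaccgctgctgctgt
Krtap4-16: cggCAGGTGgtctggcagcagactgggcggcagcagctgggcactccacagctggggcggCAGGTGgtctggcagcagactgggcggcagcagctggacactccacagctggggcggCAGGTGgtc
Krtap4-7: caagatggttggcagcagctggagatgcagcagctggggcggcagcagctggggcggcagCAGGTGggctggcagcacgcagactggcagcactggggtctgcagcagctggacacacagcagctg

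In the 300 bases around the peak centre, 393 of the 1398 peaks on chromosome 11 held CACCTG on either strand, or 28.1% (95% Wilson interval 25.8 to 30.5%, which like all intervals here covers counting error only). On the other 18 autosomes the mean share was 29.2 ± 2.10% (SD over chromosomes). Of the 31396 promoters of 300 bases on the autosomes, 20.5% held it, and of the 2289 on chromosome 11, 21.2% did. Of the 949 peaks of chromosome 11 within 5 kb of a TSS, 24.9% held it in the central 300 bases. Promoters of genes with such a peak did not hold it more often, with 20.0% of 1038, than those of curated genes without, with 23.2% of 695. The share of all peaks, 28.1% on chromosome 11, was within 1 SD of the other autosomes (two-sided exact permutation test over the 19 autosomes, p = 0.526). Over whole peaks, which are longer than this window, 83.9% held a match on chromosome 11 and 81.5 ± 3.07% on the others, so the direction turned. Peaks on chromosome 11 had a median length of 1950 bp, against 1828 ± 102 bp on the others (exact permutation p = 0.368). Whether length bears on the whole-peak share was not tested. In all, 8 measures were tested this way, and the Benjamini-Hochberg adjusted p by the same permutation was 0.702 or higher for each. A single chromosome against 18 cannot give a p under 0.0526 in this test, so none of its results could reach 0.05. A match is a description of the letters and does not mark a site of binding.

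Chromosome 11 held 11.8 peaks per Mb of sequence, against 6.97 ± 1.87 on the other autosomes, and the next highest value was 10.5, on chromosome 8. It also had the most curated genes per Mb, coding and non-coding together, 16.3 against 10.2 ± 2.57, though chromosome 7 was close and had more protein-coding genes per Mb, 13.9 against 13.3. It had the highest GC content, 43.8% against 41.9 ± 0.729%. Per 100 genes it had 72.2 peaks, against 68.5 ± 11.9, which placed it 5 from the top of the 19 autosomes. By peaks per 100 genes, chromosome 11 therefore lay within 1 SD of the others, although it led them per Mb. A straight line of peak density on gene density through the other 18 autosomes gave 10.4 peaks per Mb at the gene density of chromosome 11, and the observed value was 1.36 above it, with a residual SD of 1.22. Over all 19 autosomes Pearson's r was 0.830, a description of 19 chromosomes that share the same libraries and whose GC content was not held apart. Chromosome 7 had nearly the same gene density, 16.3 genes per Mb, but only 57.5 peaks per 100 genes, and chromosome 8 had 104.

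**Figure D1:**
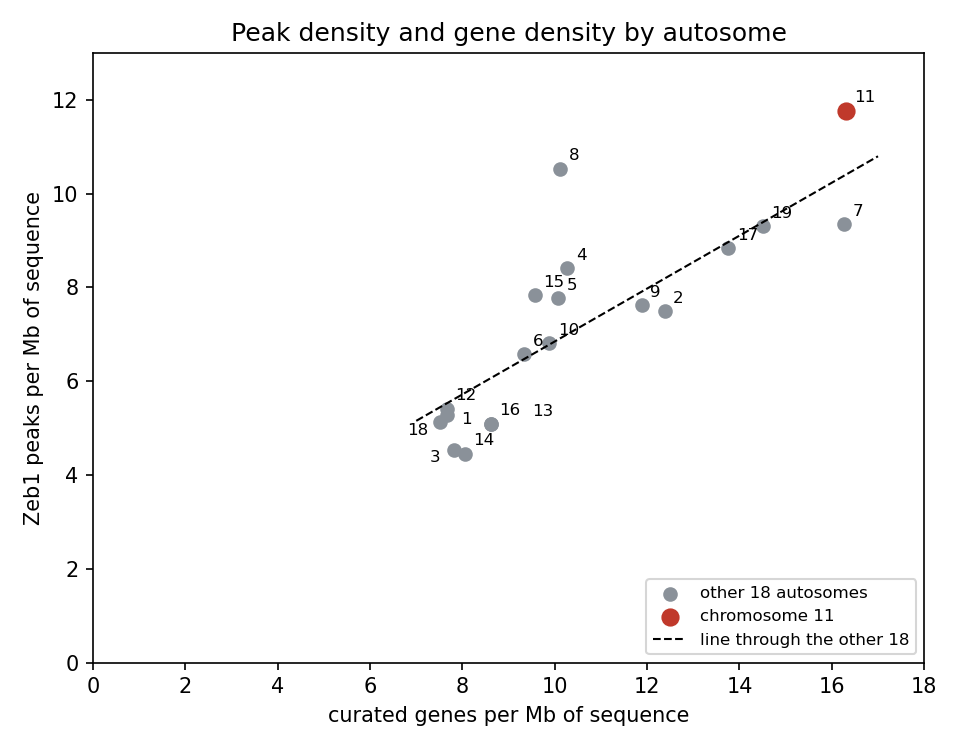
Zeb1 peaks per Mb against curated genes per Mb, coding and non-coding, for each autosome, numbered by chromosome, with chromosome 11 in red and a line fitted to the other 18. Chromosome 11 is highest on both axes, at 16.3 genes and 11.8 peaks per Mb.

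Of the 1937 curated genes of chromosome 11, 1085 had a peak centre within 5 kb of a TSS, or 56.0% (95% Wilson interval 53.8 to 58.2%), against 48.6% of all 24963 autosomal genes. The mean of the other autosomes was 48.4 ± 5.52%, and chromosome 8, with 61.3%, was higher. This share follows in part from the number of peaks that chose the chromosome, so it is a description and no p is read from it. Among protein-coding genes it was 60.1%, with a mean of 54.0 ± 6.37% elsewhere. On chromosome 7, with its large olfactory and vomeronasal receptor families, 40.1% of genes had a peak, and 48.7% without those families, a count chosen after the values were seen. The same count on chromosome 11 gave 58.5%.

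By the deposited distance, 949 peaks on chromosome 11 lay within 5 kb of a TSS, or 67.9% (95% Wilson interval 65.4 to 70.3%). The mean of the other autosomes was 62.0 ± 4.64%, and chromosome 19 was higher, with 71.0% (exact permutation p = 0.211). On chromosome 11, 508 peaks were centred 0 to 0.5 kb downstream of a TSS and 188 up to 0.5 kb upstream. On the other autosomes the peaks were spread around the TSS in a similar way, and the same intervals held 34.6% and 11.1% of peaks, against 36.3% and 13.4% on chromosome 11. The shares differed more far from genes, where 110 peaks, or 7.87%, were more than 50 kb from a TSS, against 15.8% of the 15730 peaks on the other autosomes. Intergenic peaks made up 9.16% on chromosome 11 and 17.2% elsewhere.

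**Figure D2:**
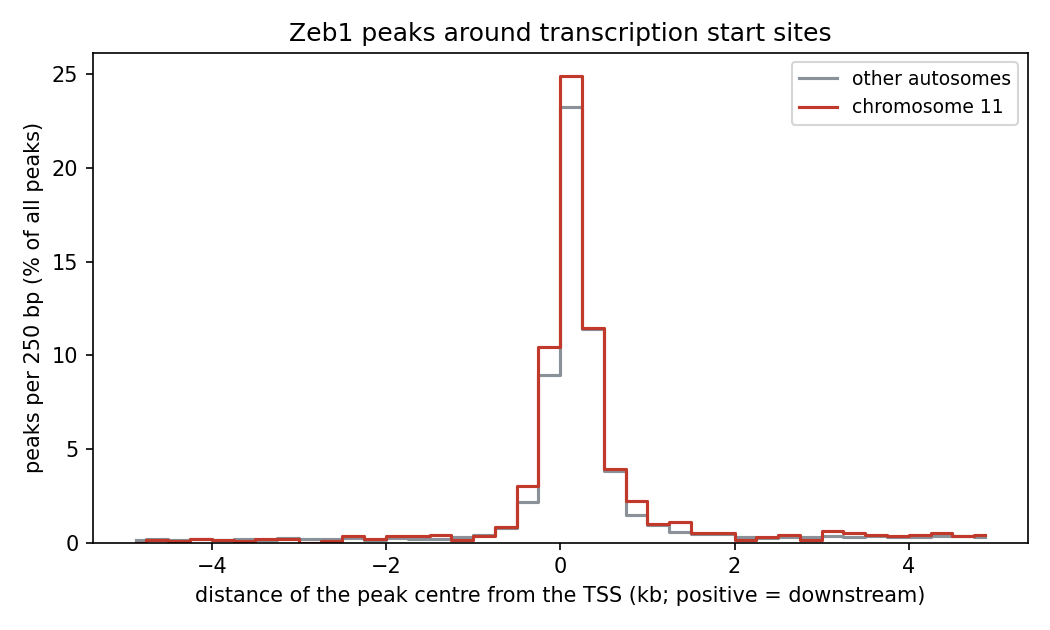
Percent of all peaks in each 250 bp step of distance from the TSS, for chromosome 11 (red) and the other 18 autosomes together (grey). Both rise steeply just downstream of the TSS, where the 0.5 kb held 36.3% of chromosome 11 peaks and 34.6% of the others.

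LINE-1 elements are retrotransposons that make up much of the repeated sequence far from genes. Only 72 peaks of chromosome 11 were annotated in one by the authors, or 5.15% (95% Wilson interval 4.11 to 6.44%), the lowest share of the 19 autosomes, against 14.7 ± 4.93% on the others. Per Mb, too, chromosome 11 had the fewest LINE-1 peaks, 0.606 against 0.956 ± 0.189, while its other peaks reached 11.2 per Mb against 6.02 ± 1.88. This comparison was chosen after the values were seen and is given with no test. Chromosome 11 also had the lowest share of soft-masked, that is repeated, sequence of the 19 autosomes, 30.6% against 33.5 ± 1.24%. Whether this bears on its LINE-1 peaks was not tested. None of the 72 lay within 5 kb of a TSS, and on the other autosomes 30 of 2238 did. Without LINE-1 peaks, the share of peaks within 5 kb of a TSS was 71.6% on chromosome 11 and 72.6 ± 5.44% on the others. Since nearly all LINE-1 peaks lie beyond 5 kb, leaving them out raises this share most where they are frequent, so the change follows from the peaks left out.

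Treatment reads per kb of peak, the mean reads of the ChIP libraries divided by peak length, had a median of 24.6 on chromosome 11, with quartiles of 20.2 and 30.3. The medians of the other autosomes averaged 25.3 ± 0.915 (exact permutation p = 0.421). Input reads per kb had a median of 7.78, against 8.15 ± 0.672 (exact permutation p = 0.316). The median enrichment, a ratio of treatment to input that the authors scaled by mapped reads, was 6.67, against 6.50 ± 0.327 (exact permutation p = 0.474). With the mean in place of the median, enrichment was 7.21 against 7.23 ± 0.415, so the direction turned. Each of the 3 medians differed from the other autosomes by less than 1 SD of them. Within chromosome 11, the 949 peaks near a TSS had a median of 26.6 treatment reads per kb, the 377 other peaks outside LINE-1 elements 21.4, and the 72 LINE-1 peaks 23.0. Median enrichment was 6.80, 6.41 and 5.31 in the same order of classes, so that the LINE-1 peaks were lowest in enrichment but not in reads.

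**Figure D3:**
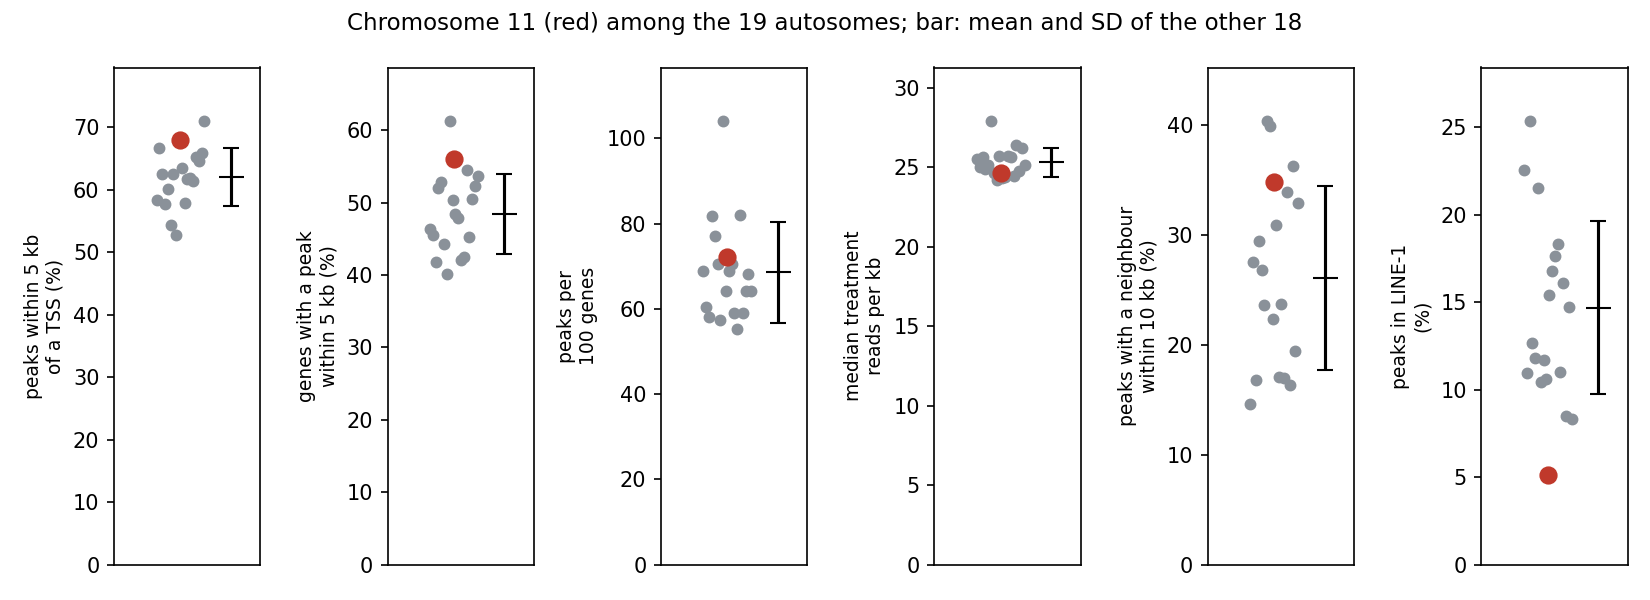
Values of the 19 autosomes for 6 measures, each on its own axis from 0, with chromosome 11 in red and the mean and SD of the other 18 as a bar. Chromosome 11 is lowest in LINE-1 peaks, at 5.15%, and within the range of the others in the other 5 measures.

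The LINE-1 peaks of chromosome 11 differed by family, in a comparison chosen after the values were seen. The 30 in L1Md_T, a young family, had a median enrichment of 8.22, and 22 of them, or 73.3%, held CACCTG in the central 300 bases. The 42 in other LINE-1 families had a median enrichment of 3.50, and 7 of them, or 16.7%, held it. Copies of a family share their sequence, so these are not independent observations. Of the 5 peaks with the highest enrichment on the chromosome, 4 were in L1Md_T. The highest, chr11:45725051-45726450, named for F630206G17Rik and intergenic, 82333 bp upstream of its TSS, had an enrichment of 57.3 and 12 matches of CACCTG, but this rests on 29 treatment reads and 1 input read. The L1Md_T peak named for Mat2b, chr11:40418951-40420250, 273082 bp downstream of the TSS, had 36.7 treatment reads, 4 input reads, an enrichment of 19.9 and 9 matches. The others were named for 1700046C09Rik, at chr11:13946051-13947950 with an enrichment of 22.2, and Car10, at chr11:92693601-92695250 with 21.3. Neither of these held CACCTG in its central 300 bases, and the peak of 1700046C09Rik held 1 match in all.

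Peaks with the most treatment reads per kb were of another sort. The highest, 113 per kb, was a peak of 629.7 treatment reads named for Pisd-ps1, at chr11:3099801-3105350, in the satellite repeat GSAT_MM near the start of the chromosome. Its input was also high, 475 reads, so that its enrichment was 2.93. The L1Md_F peak named for Sec61g, chr11:16454401-16455800, had 103 treatment reads against 105 in the input, for an enrichment of 2.10, and the L1Md_F3 peak named for Tmem17, chr11:22429251-22430500, had 3.27. At these 3 peaks the input was high along with the ChIP. The next peaks lay in genes. Rtn4rl1, a receptor related to the Nogo receptor, had 182 treatment reads and an enrichment of 13.9 at chr11:75192851-75195850 in intron 1, and Klhl11, a BTB-Kelch protein, had 9.16 at chr11:100471501-100473350 in the coding part of exon 1.

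**Figure D4:**
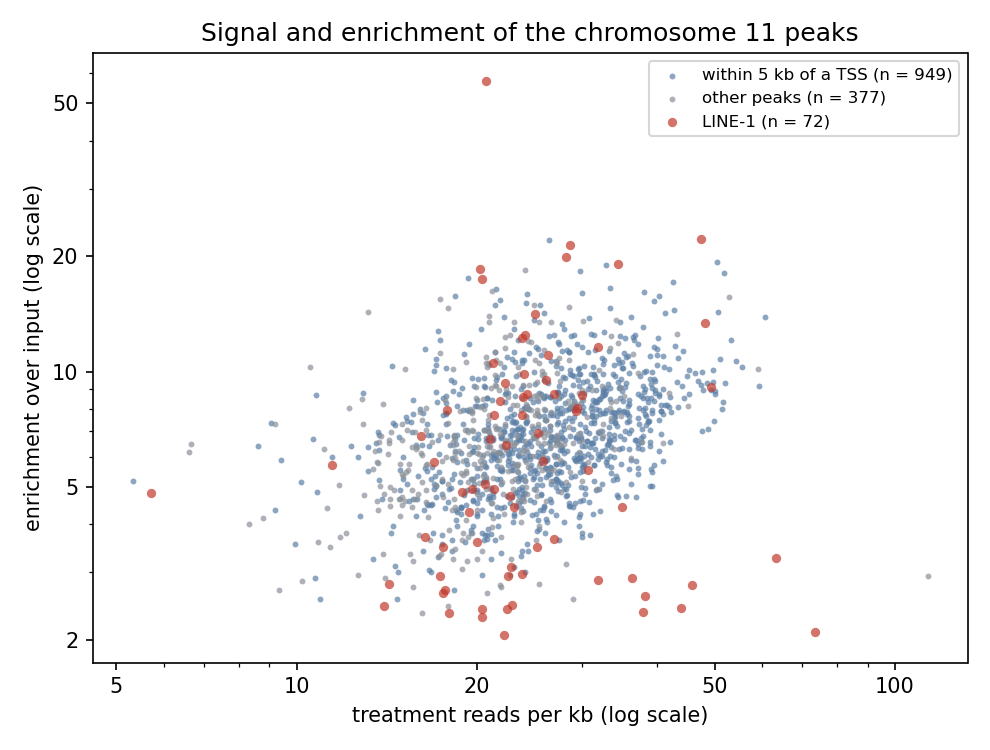
Enrichment over input against treatment reads per kb for the 1398 peaks of chromosome 11, both on log scales, with peaks within 5 kb of a TSS in blue, LINE-1 peaks in red and other peaks in grey. LINE-1 peaks lie at both ends of the enrichment, from 2.06 to 57.3.

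Each list of genes is to be read against the 56.0% of all genes and 60.1% of protein-coding genes of chromosome 11 that had a peak within 5 kb, and the lists are short. The best enrichment of a gene is the highest among its peaks within 5 kb, so it can rise with their number. In the Hoxb cluster, whose homeobox genes pattern the body axis, 9 of 10 genes had a peak within 5 kb, with neighbours such as Hoxb7 and Hoxb8 sharing one, and the median of their best enrichments was 6.85. The Hoxb3 peak, chr11:96343551-96346900, centred in intron 3 of 4 exons and 1456 bp downstream of a TSS, stood out with an enrichment of 22.04 from 88.4 treatment reads and 8.14 input reads. Hoxb13, which lies apart from the others, had no peak within 5 kb, and its nearest was 9209 bp away. All 7 genes of the Wnt list had a peak. Axin2, a scaffold of the complex that degrades beta-catenin and itself a target of the pathway, had the highest enrichment of the list, 11.1, in intron 1, 1351 bp downstream of the TSS. Wnt3a and Wnt9a, 2 neighbouring ligand genes, had peaks with enrichments of 6.83 and 6.97, and Dvl2, which relays the signal inside the cell, one of 9.73.

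Of the mesoderm and cardiac regulators, 8 of 10 had a peak (95% Wilson interval 49.0 to 94.3%, which includes the 60.1% of protein-coding genes). Their median best enrichment was 9.27, against 7.05 over all 1085 genes with a peak on the chromosome, a difference that was not tested. Other lists also lay above 7.05, such as the Polycomb and heterochromatin genes with 8.37, and others below, such as the ribosomal protein genes with 5.11. The T-box gene Tbx2 had an enrichment of 11 in intron 5. Hand1, a factor of heart development, had 11.2 in intergenic sequence 4347 bp downstream of its TSS, and Lhx1 10.8 in the 5' UTR. Tbx2 and Hand1 had 2 peaks each, and the one nearer the TSS, at 1290 and 247 bp, was not the best. Myocd, a coactivator of smooth and cardiac muscle genes, had 8.35, centred 86 bp upstream of the TSS. Meis1 and Ebf1 had none within 5 kb. The neural and other lineage regulators had 9 of 14, or 64.3%, close to the 60.1% of protein-coding genes, with a median of 8.79. Foxj1, the regulator of motile cilia, led them with an enrichment of 16.4 in the coding part of exon 3, from 44.1 treatment reads, and Neurod2, a proneural factor, had 11.8 at 4380 bp upstream of the TSS. The lymphoid factors Ikzf1 and Ikzf3, with Dlx4, Foxi1 and Sox15, were the 5 without.

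LIF sustains mESC through Stat3, and 8 of 10 genes of the LIF and Stat list had a peak, with an interval of 49.0 to 94.3% that includes the share of protein-coding genes, 60.1%. The highest enrichment, 10.1, was at Socs3, the feedback inhibitor of this pathway, whose peak chr11:117967301-117970450 was centred in the 5' UTR with 157 treatment and 34.6 input reads. Stat3 had 8.52 in intron 1 and Lif itself 4.96 in intron 1, so the ligand gene was lower than its effector. Osm and Map2k6 had none. Besides LIF and Stat genes, the list held the MAP kinase kinase genes Map2k3, Map2k4 and Map2k6, and Map2k3 and Map2k4 were among the 8 with a peak. The 3 nuclear receptor genes Rara, Thra and Nr1d1 all had a peak, with the highest enrichment, 11.3, at Nr1d1, a repressor of the circadian clock.

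Among chromatin regulators, all 6 Polycomb and heterochromatin genes had a peak, beside 60.1% of protein-coding genes, with a median best enrichment of 8.37. Cbx8, of PRC1, and Suz12, a core subunit of PRC2, had 10.9 and 10.6, and the Suz12 peak was centred 44 bp downstream of the TSS in the 5' UTR. Of the 12 remodeller, acetylation and corepressor genes, 11 had a peak, or 91.7% (95% Wilson interval 64.6 to 98.5%), and Bptf had none. Kansl1, of the NSL acetyltransferase complex, was highest with 12.4, and Hdac5, a histone deacetylase, lowest with 3.00. The Mediator and transcription kinase genes had 4 of 7 and the genes of DNA damage and mitosis 6 of 10, both near the share of protein-coding genes, and Trp53, Brca1, Brip1 and Top2a were the 4 without. Ribosomal protein genes had 6 of 7, with a median of 5.11, and proteasome genes 6 of 8, with 7.84. The intervals of both shares, 48.7 to 97.4% and 40.9 to 92.9%, include that of protein-coding genes. The imprinted genes had 2 of 4, Grb10 with 7.01 and Commd1 with 16.1, and Nos2 had 1 peak, with 6.75. This Nos2 peak was centred 4366 bp downstream of the TSS by the deposited distance and 66 bp upstream of the nearest TSS in the reference. The paper describes the gene, as iNOS, as almost without Zeb1 peaks.

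**Figure D5:**
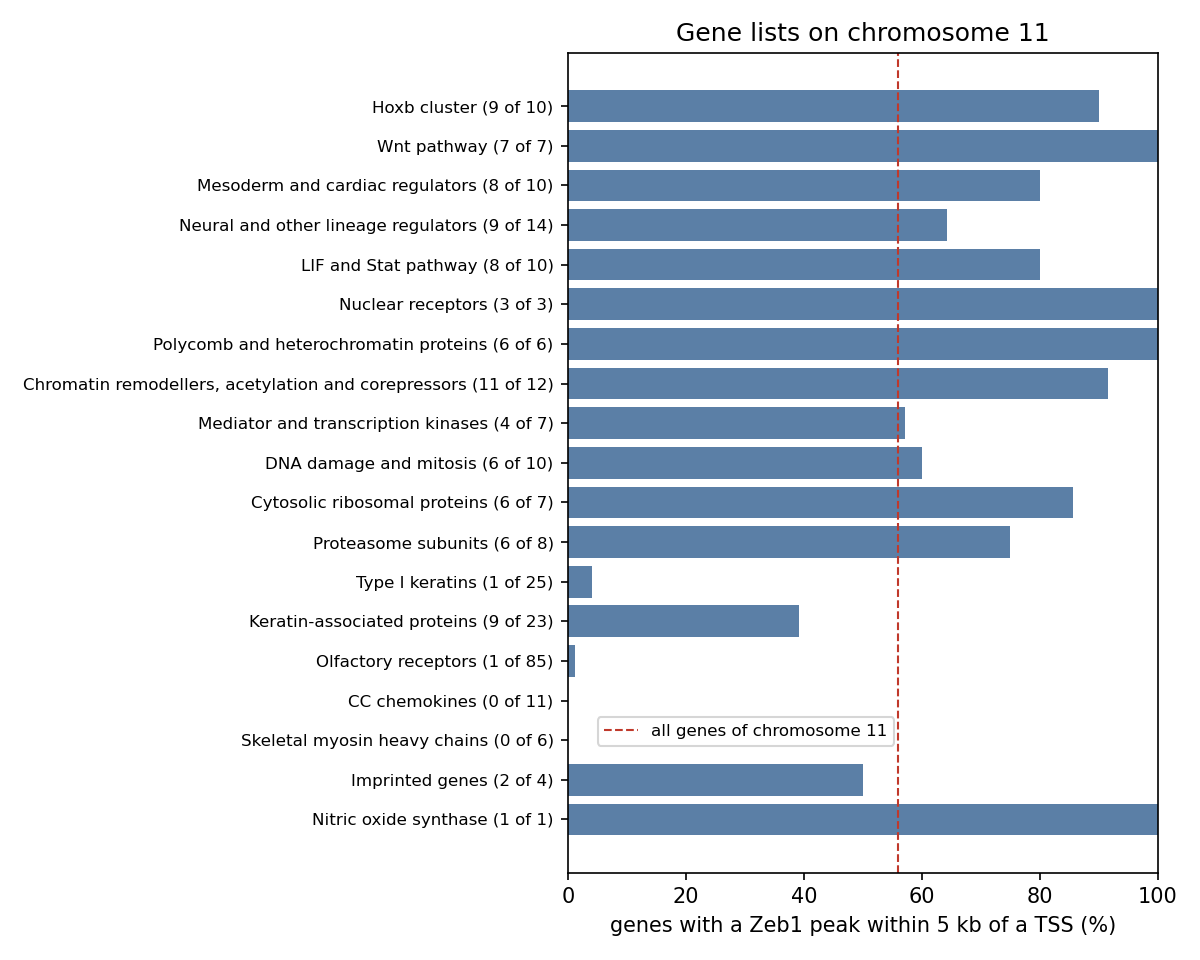
Percent of the genes of each list on chromosome 11 that had a peak within 5 kb of a TSS, with the counts in brackets and a dashed line at 56.0%, the value of all genes of the chromosome. Lists of olfactory receptors, type I keratins, CC chemokines and skeletal myosins lie at or near 0.

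The clusters of olfactory receptor, type I keratin, CC chemokine and skeletal myosin genes were nearly free of peaks. Of 85 olfactory receptor genes, 1 had a peak within 5 kb, Olfr322, with an enrichment of 2.95. Of 25 type I keratin genes, 1 had, Krt19, a keratin of simple epithelia, with 5.20. None of the 11 CC chemokine genes and none of the 6 skeletal myosin heavy chain genes had one. Genes of a cluster are neighbours and do not count as independent cases.

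Of the keratin-associated protein genes, which encode the matrix proteins of hair, 9 of 23 had a peak within 5 kb, or 39.1%. Some neighbours shared a peak. The Wilson interval, 22.2 to 59.2%, includes the 56.0% of all genes of the chromosome and ends below the 60.1% of protein-coding genes. The share was higher than in the clusters nearly free of peaks, a difference that was not tested. The 8 peaks within 5 kb of the genes with Krtap symbols were small, with 24.5 to 40.6 treatment reads, and enrichments from 5.60 to 15.1. All but the peak named for Krtap31-2 were centred in the coding part of single-exon genes, between 258 and 452 bp downstream of the TSS. Each of these 7 held CACCTG in its central 300 bases, against 28.1% of all peaks on the chromosome, and they held 2 to 8 matches in all, with a median of 3.45 per kb against 1 per kb, a comparison chosen after the values were seen. The peak of Krtap1-3, chr11:99590201-99591650, had the highest enrichment of the 8, 15.1, from 35 treatment reads and 4.5 input reads. Of the 7, the peak in Gm11938 was counted for Krtap9-3, whose TSS was 4944 bp away. In the same stretch, 4 further peaks lay in the coding exon of other single-exon genes. These genes were Gm11563, Gm11595, Gm11596 and 2300003K06Rik, named after their values were seen. Of these, 3 held CACCTG in the central 300 bases, and the peak of Gm11595, which did not, had the highest enrichment, 17.5, from 30 treatment reads and 3.5 input reads. The coding sequence of these genes repeats itself, as the Krtap4-16 stretch shows with 3 matches, and neighbouring genes of the family are alike. The authors kept only reads with a unique alignment, and the part of the shared sequence in these peaks was not tested.

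The place of chromosome 11 in the spacing of peaks depended on the distance used. The nearest other peak centre was within 10 kb for 34.8% of them, against 26.0 ± 8.36% on the other autosomes, and chromosome 7 had 40.3%. Within 50 kb it was 79.5%, the highest of the autosomes, against 61.3 ± 10.4%. Both shares rise with peak density, which chose the chromosome, so they are a description and no p is read from them. The median gap divided by the mean gap, which is scaled by density, was 0.376 against 0.402 ± 0.0776. A lower ratio means closer clustering, and this difference was within 1 SD. In windows of 1 Mb, peaks ranged from 0 in 4 of 119 windows to 60, and the 25 windows with 20 or more peaks held 53.4% of the peaks. Spearman's rho of peaks with genes across the 119 windows was 0.879, and with GC content 0.814. Windows of a chromosome are neighbours and share base composition, so both are descriptions. From 10 to 20 Mb there were 29 peaks, 15 of them in LINE-1, and from 110 to 120 Mb 185 peaks, 1 of them in LINE-1.

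With successive centres at most 10 kb apart, 240 peaks formed 64 runs of 3 or more. The longest had 8 peaks in 27650 bp, chr11:97659451-97687100, over Mllt6, a partner of the Dot1l methyltransferase, with Mir6927 and Cisd3, and its enrichments ranged from 2.75 to 10.1. There were 3 runs of 7. The run at chr11:119022101-119060000 spanned the Polycomb genes Cbx2 and Cbx8 with enrichments of 4.58 to 10.9. The run at chr11:98319951-98359250 covered Neurod2, Ppp1r1b, a phosphatase inhibitor of dopamine signalling, and 1700003D09Rik, with 5.15 to 14.2. The last, chr11:120607701-120648600, lay across Npb, Pcyt2, Sirt7, Mafg, Pycr1 and Myadml2, and all of its 7 peaks were within 5 kb of a TSS. These runs thus each reached across the genes and intergenic sequence of at least 2 neighbours.

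Bahcc1 and Trim11 were among the genes named for the most peaks, with 6 each, and 8 genes were tied with 5. The 6 peaks of Bahcc1, a chromatin protein with a BAH domain, had enrichments of 6.35 to 14.3 over 59500 bp, and those of Trim11, of the tripartite motif family, 4.2 to 8.2 over 76500 bp. Cobl and Mat2b had 5 peaks each, 4 of them in LINE-1 elements, whereas none of the peaks of Cbx8, Engase, Fgf18, Socs3, Srcin1 and Tac4 was in one. Genes with many peaks thus differed in how many of these lay in repeats.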

How the data were processed

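Zeb1 ChIP-seq of mESC in GS was analysed from the deposited list of unified peaks. The authors aligned the reads with STAR 2.4.2a, removed duplicates with Picard 1.136 and annotated peaks with HOMER 4.7, per the submitters' processing notes, and by the paper's methods kept reads that aligned uniquely. They called peaks in each ChIP library against the input, unified those found in at least 2 of the 3 libraries and averaged the values. The read columns are a signal, which the authors averaged per peak, and enrichment is a ratio of treatment over input made by the authors. The deposited p-value was not used. By the paper's methods an equal number of reads was drawn from each sample, and the list itself gives no depth.

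Genes came from 45756 curated RefSeq transcripts of GRCm38.p6. The legend gives positive TSS distances as upstream, but the reference places them downstream, and the latter was used. Chromosome 11 was set against the 18 other autosomes with a two-sided exact permutation test, with the chromosome as unit, and X and Y were left out. Named genes are the members of the gene lists, the genes of the 5 most enriched peaks, those of the 5 peaks highest in treatment reads per kb, the 5 genes with the most peaks, and those of the 3 longest runs, with ties kept. Some of these genes are withheld and not reported here. The members and lists were chosen with earlier results of these data known. The measures were tested on simulated data, with results that are not reported here. Computation was done in Python 3.11.15 with pandas 2.3.3, pysam 0.24.0, SciPy 1.17.1, NumPy 2.4.6 and matplotlib 3.10.9.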

Additional observations from a re-analysis of the deposited data

How the results depend on the processing

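Values are chromosome 11 minus the mean of the other autosomes. Of 34 alternatives, 29 kept the direction and moved by less than 1 SD of the other autosomes, among them all 6 chosen after seeing the data. The differences could still change in size under these 29, from 1.90 to 9.84 for peaks per 100 genes (9.84 without LINE-1 peaks), from 2.44 to 9.14 points for neighbours, from 3.10 to 7.62 for peaks near a TSS, from 4.99 to 8.76 for genes with a peak, from -0.876 to -0.161 for treatment reads per kb (-0.161 in peaks of 1500 to 2500 bp), from 0.0615 to 0.374 for enrichment and from -1.24 to -0.744 for the motif. The share of peaks within 5 kb of a TSS, 5.89 percentage points higher, became -0.990 without LINE-1 peaks, which nearly all lie beyond 5 kb. The share with a neighbour within 10 kb, 8.73 points higher, became 18.2 within 50 kb. The median gap divided by the mean gap, on another scale, was -0.0256. A lower ratio means closer clustering, so its sign did not turn the direction, though it was counted outside the 29. The motif share, -1.12 points, became 2.44 over whole peaks, and the median enrichment, 0.164 higher, became -0.0203 with the mean. Apart from the change in the share near a TSS, the causes of these changes were not tested. Leaving out a library was not possible, and no spread between libraries is known. No paired analysis was possible because the list carries no value per library. Peaks with few input reads have uncertain ratios.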
